A study of Mus musculus with 10 samples.

Results

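The mitochondrial genome transcripts are the RNAs read from the small circular chromosome inside mitochondria. They were taken as every row of the deposited count table whose symbol begins with mt-, which gave 37 of 55492 rows. These comprised 13 protein-coding genes, 2 ribosomal RNAs and 22 transfer RNAs, and 18 of the 37 had enough counts to be tested. The libraries came from mouse B cells, and every group was named by stage and genotype. Induced germinal center B cells (iGCB) were sampled on day 4 of culture on 40-LB cells, a fibroblast feeder line that displays CD40 ligand and secretes BAFF, as 3 Pcbp1 knockout (iGCB KO) and 3 wild-type (iGCB WT) libraries. Naive splenic B cells were sampled on day 0, as 2 knockout (naive KO) and 2 wild-type (naive WT) libraries. KO mice carried floxed Pcbp1 (fl/fl) with Mb1-Cre, a Cre active in the B lineage from early development, which removes this gene of an RNA-binding protein from B cells. Sex, age and strain, Cre in the WT mice, and whether libraries came from separate animals are not stated in the labels, so the p-values below measure the spread between these libraries only.

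Libraries held 33400672 to 63576147 counts. Values are CPM, read counts scaled to a common library total, on TMM-scaled totals, a scaling that equalises libraries on the bulk of their genes, and shares are percentages of a library's own total. Pcbp1 itself stood at 1.96 to 3.71 CPM in iGCB KO and 148 to 327 CPM in iGCB WT. In naive cells it stood at 0.448 to 4.33 CPM in KO and 83.9 to 152 CPM in WT, so genotype labels and values did not conflict. The B cell markers Cd79b, Ms4a1 and Cd22 ranged from 514 to 1169.9 CPM, from 378 to 1241 CPM and from 707 to 1222 CPM over the 10 libraries. Cd79a, the gene also called Mb1 whose locus the Cre line is named for, had 342 to 438 CPM in iGCB KO and 773 to 822 CPM in iGCB WT, and 414 and 432 CPM in naive KO and 1173 and 1387 CPM in naive WT. Xist and Y-linked counts marked naive KO 1 and naive WT 1 as female and the other 8 libraries as male. In bulk RNA, fewer cells of a type and less RNA per cell cannot be told apart.

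Mitochondrial DNA is transcribed from promoters in its noncoding control region as long RNAs that cover nearly a whole strand. Transfer RNAs lie between most of the other genes, and their excision releases the ribosomal and messenger RNAs, which then gain short tails. All protein-coding members encode core subunits of the respiratory chain and ATP synthase, and the ribosomal RNAs build the mitochondrial ribosome that translates them. One strand carries most genes, while the opposite (light-strand) transcript carries mt-Nd6 and 8 transfer RNAs. B cells that leave rest and start to divide are known to enlarge their mitochondrial mass.

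Many members have relatives in the nuclear genome, and the sequences decide which rows of the table can be read as mitochondrial. In the GENCODE M21 annotation of mm10, a block of 7 pseudogenes at chr1:24611535-24616197 repeats part of the mitochondrial genome. The stretch below opens both mt-Co2 (chrM:7013-7072, plus strand), a catalytic subunit of cytochrome c oxidase, and its copy Gm28661 (chr1:24615506-24615565, minus strand). They are shown because they do not differ, which holds for all 681 aligned bases, or 99.6% of mt-Co2. No letter is in capitals in this pair.
mt-Co2: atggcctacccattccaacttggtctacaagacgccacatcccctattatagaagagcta
Gm28661: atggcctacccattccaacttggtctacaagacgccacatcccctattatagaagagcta

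The copies of mt-Atp6 (Gm10925, 678 bases), mt-Co3 (Gm28437, 783 bases), mt-Nd4l (Gm10222, 294 bases) and mt-Nd4 (Gm28439, 876 bases) also matched with 0 mismatches. Only 63.6% of mt-Nd4 lay on its copy, which left 502 bases of that gene outside it. The other copies each differed at 1 base, shown in capitals, with positions counted from 1 at the start of the mitochondrial gene. mt-Nd3 (chrM:9459-9481, plus strand) and Gm28438 (chr1:24613097-24613119, minus strand) differed by T3C over 345 bases. mt-Co1 (chrM:6390-6413, plus strand) and Gm29216 (chr1:24616165-24616188, minus strand) differed by A1066T over 483 bases, which are 31.3% of mt-Co1.
mt-Nd3: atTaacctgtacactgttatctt
Gm28438: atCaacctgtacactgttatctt
mt-Co1: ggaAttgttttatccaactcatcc
Gm29216: ggaTttgttttatccaactcatcc

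Reads that begin and end inside such a stretch fit both places, and how multiply placed reads were counted is not given in the sources used here. Counts of mt-Co2 were 0.928 to 1.25 times those of Gm28661 in iGCB libraries and 0.538 to 0.797 times in naive libraries. mt-Atp6 had 0.723 to 1.17 times the counts of Gm10925 in iGCB and 0.340 to 0.624 times in naive libraries, and mt-Co3 had 1.24 to 1.87 times those of Gm28437 in iGCB and 0.482 to 0.899 times in naive libraries. In these 3 pairs the ratio was thus higher in every iGCB library than in any naive one. The ratio of mt-Nd4l over Gm10222 leaned the other way, at 1 to 2 in iGCB and 1.79 to 2.67 in naive libraries (median 1.75). So did that of mt-Nd3 over Gm28438, at 2.07 to 4.11 in iGCB and 3.89 to 31.4 in naive libraries (median 3.66). The stages overlapped in both of these pairs. Where much of the gene lay outside the copy the ratio was far larger: mt-Nd4 had a median of 476 times the counts of Gm28439, and mt-Co1 a median of 3413 times those of Gm29216. For mt-Nd4 it was lower in every iGCB library (242 to 516) than in any naive one (564 to 896). For mt-Co1 it was 1321 to 3528 in iGCB and 3498 to 4934 in naive libraries. mt-Atp8 lies between mt-Co2 and mt-Atp6 in the mitochondrial genome and shares 43 bases with mt-Atp6. The copies of those neighbours, Gm28661 and Gm10925, are 233 bases apart with no transcript annotated between them, so a copy of mt-Atp8 was not looked for there.

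**Figure D1:**
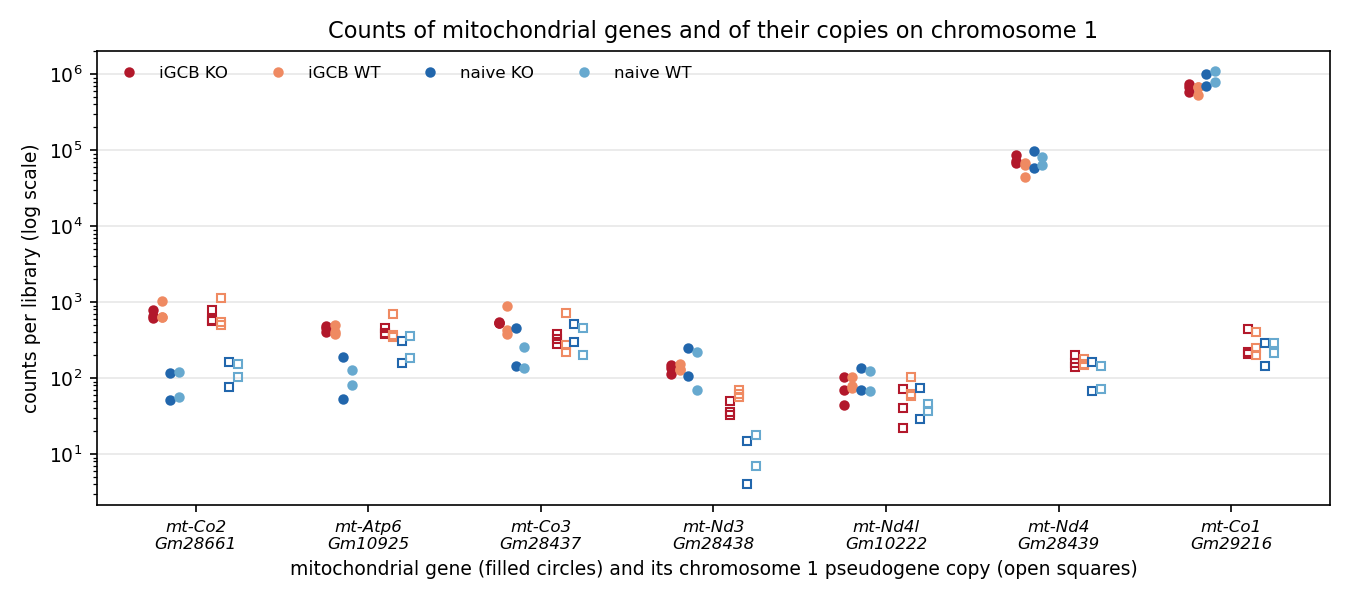
Counts per library (log scale) of 7 mitochondrial genes (filled circles) and of their chromosome 1 copies (open squares beside them), with 1 point per library coloured by group. mt-Co2, mt-Atp6 and mt-Co3 lie within about the same range of counts as their copies, above or near them in most iGCB libraries and below them in the naive ones, while mt-Nd4 and mt-Co1 lie far above theirs, at median ratios of 476 and 3413.

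mt-Atp8 and the 5 genes that lie almost wholly on a copy were the weakest protein-coding rows once levels were divided by gene length. mt-Co2, mt-Atp8, mt-Atp6, mt-Co3, mt-Nd3 and mt-Nd4l had levels of 0.248 to 37.9 CPM per kilobase in single libraries. The other 7 protein-coding genes had 479 to 13973 CPM per kilobase. The 6 rows held 0.0306% to 0.248% of a library's mitochondrial counts, and their fold changes are given below, beside those of the copies where one is annotated. The 7 well-counted genes and the 2 ribosomal RNAs have no annotated chromosome 1 copy, or one that covers 63.6% or less of the gene. Their other annotated relatives were less alike, with Gm13340 at 97.6% identity over all of mt-Co1, Gm13339 at 96.7% over 510 bases of mt-Nd2 and Gm4076 at 95.2% over 954 bases of mt-Nd5.

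**Figure D2:**
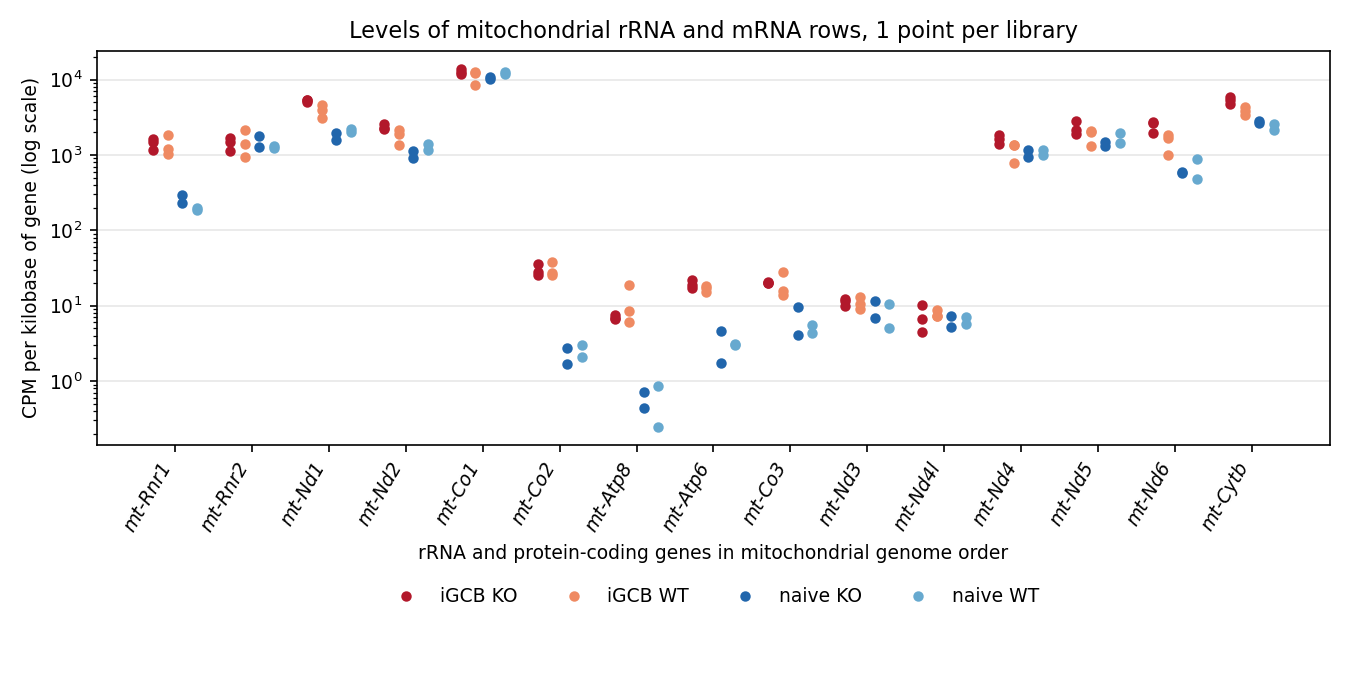
Level of each ribosomal RNA and protein-coding gene of the mitochondrial genome in CPM per kilobase of gene (log scale), in genome order, with 1 point per library in the colours of the 4 groups. mt-Co2, mt-Atp8, mt-Atp6, mt-Co3, mt-Nd3 and mt-Nd4l sit at 37.9 CPM per kilobase or lower, below the 7 other protein-coding genes at 479 or higher.

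Among the well-counted genes, mt-Co1, the catalytic core of cytochrome c oxidase (complex IV), had the highest level per length in every library. It took 44.2% ± 1.4 of mitochondrial counts in iGCB KO, 47.0% ± 1.4 in iGCB WT, 55.8% ± 2.2 in naive KO and 59.0% ± 1.9 in naive WT (SD, n = 3, 3, 2 and 2). mt-Cytb, the catalytic subunit of complex III, took 13.6% ± 0.9 in iGCB KO, 12.2% ± 1.6 in iGCB WT, 10.8% ± 0.2 in naive KO and 8.35% ± 0.45 in naive WT. The mitochondrial RNA pool was thus less dominated by mt-Co1 on day 4, and the ratio of mt-Co1 to mt-Cytb per length was 2.42 ± 0.22, 2.88 ± 0.38, 3.83 ± 0.08 and 5.25 ± 0.46 in the same order of groups. No library of either iGCB group reached the lowest naive ratio, 3.77.

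Transfer RNA rows held few counts. After an mRNA library preparation these do not measure how much transfer RNA the cells held. Of 22, 14 had 0 counts in every library, which allows up to 3 counts, or 0.0472 to 0.0898 CPM of unscaled totals depending on the library. Another 5 had some counts, never more than 7 in a library, and were not tested. The 3 that passed the filter, mt-Tp, mt-Tc and mt-Tn, are all on the minus strand. Their sequences, each a whole gene, are shown with mt-Tf, a plus-strand gene at the opposite edge of the control region that had 0 counts throughout. No letter is in capitals. mt-Tp spans chrM:15356-15422 and is the last annotated gene before the control region. mt-Tc (chrM:5192-5257) and mt-Tn (chrM:5089-5159) flank a 32-base gap that holds no annotated gene, whereas no gap between another transfer RNA gene and an annotated neighbour exceeded 5 bases. mt-Tf spans chrM:1-68.
mt-Tp: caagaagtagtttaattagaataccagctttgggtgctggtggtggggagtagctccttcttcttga
mt-Tc: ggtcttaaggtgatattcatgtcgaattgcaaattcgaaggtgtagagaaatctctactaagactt
mt-Tn: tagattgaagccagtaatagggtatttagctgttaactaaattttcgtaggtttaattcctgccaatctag
mt-Tf: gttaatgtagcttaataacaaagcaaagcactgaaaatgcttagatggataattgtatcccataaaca

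Between day 4 and day 0, the mitochondrial RNAs did not move as a block. The small ribosomal RNA, the light-strand mRNA mt-Nd6, mt-Nd1 and mt-Cytb were higher in iGCB cells of both genotypes, while the large ribosomal RNA and mt-Co1 were not called in either. In edgeR's quasi-likelihood test with Benjamini-Hochberg adjustment at 0.05, 12 of 18 tested rows were higher and 0 lower in iGCB KO against naive KO. Over all 21010 genes tested, 24.8% were higher and 31.4% lower in that comparison. In iGCB WT against naive WT, 9 of 18 were higher and 0 lower, where 24.7% of all genes were higher and 31.7% lower. At an unadjusted p under 0.05, 13 and 11 of 18 rows differed in KO and WT cells, where 62.2% and 62.0% of all genes did. DESeq2 also called 0 rows lower, with 12 and 10 higher. All 9 WT calls were among the 12 KO calls, which is 100% of the WT calls and 75% of the KO calls. The calls made in KO cells alone were mt-Nd2, mt-Nd5 and mt-Tc, but the difference between the genotypes was called for none of them.

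mt-Rnr1, the small ribosomal RNA (chrM:70-1024), was well separated between the stages. It had 1568, 1418 and 1112 CPM in iGCB KO and 1753, 1163 and 972 CPM in iGCB WT, against 281 and 219.6 CPM in naive KO and 186 and 175 CPM in naive WT. The lowest iGCB library stood far above the highest naive one. Its log2 fold change in edgeR was 2.45 in KO (SE 0.28, adjusted p = 4.73e-05) and 2.84 in WT (SE 0.28, adjusted p = 1.87e-05).

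mt-Rnr2, the large ribosomal RNA (chrM:1094-2675), lies directly downstream on the same strand, separated only by mt-Tv. It had 2663, 2345 and 1808 CPM in iGCB KO, 3371, 2224 and 1487 CPM in iGCB WT, 2787 and 2039.9 CPM in naive KO, and 1945 and 2106 CPM in naive WT. These ranges overlapped between stages in both genotypes. The log2 fold change was -0.09 in KO (SE 0.31, edgeR adjusted p = 0.820) and 0.22 in WT (SE 0.31, edgeR adjusted p = 0.557), and its sign turned in each genotype when 1 library was left out. The unequal movement of the ribosomal RNA rows is also seen within libraries. The mt-Rnr1 to mt-Rnr2 ratio per length was 0.999 ± 0.022 in iGCB KO, 0.937 ± 0.127 in iGCB WT, 0.173 ± 0.008 in naive KO and 0.148 ± 0.015 in naive WT. The labels give an mRNA library preparation, so these counts do not measure how much ribosomal RNA the cells held.

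mt-Nd6, a membrane subunit of complex I and the only mRNA of the light strand (chrM:13552-14070, minus strand), had the largest stage difference of the well-counted mRNAs in both genotypes. It had 1008, 1369.7 and 1411 CPM in iGCB KO and 876, 947 and 519.6 CPM in iGCB WT, against 306 and 303 CPM in naive KO and 249 and 459 CPM in naive WT. Stages did not overlap, although iGCB WT 3 came close to naive WT 2. In edgeR the log2 fold change was 2.05 in KO (SE 0.32, adjusted p = 0.000397) and 1.14 in WT (SE 0.31, adjusted p = 0.00957). The WT call was lost without naive WT 1 (0.77, edgeR adjusted p = 0.0690). Its 3' end overlaps that of mt-Nd5 by 14 bases on the opposite strand. The strand setting of the counting is not stated, so how many counts of this row came from light-strand RNA is not known. Relative to mt-Nd5 per length, mt-Nd6 stood at 1.09 ± 0.28 in iGCB KO, 0.828 ± 0.053 in iGCB WT, 0.422 ± 0.032 in naive KO and 0.391 ± 0.089 in naive WT.

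The heavy-strand complex I mRNAs differed among themselves. mt-Nd1 had 4845, 5074 and 5100.3 CPM in iGCB KO and 4421, 3793 and 2977 CPM in iGCB WT, against 1892 and 1516 CPM in naive KO and 1956 and 2118 CPM in naive WT. Every iGCB library was above every naive one, with a log2 fold change of 1.56 in KO (SE 0.21, edgeR adjusted p = 0.000152) and 0.87 in WT (SE 0.21, edgeR adjusted p = 0.00440). mt-Nd2 had 2269, 2398 and 2690.4 CPM in iGCB KO and 2233, 1981 and 1407 CPM in iGCB WT, against 1166 and 957 CPM in naive KO and 1208 and 1464 CPM in naive WT. KO stages were apart for mt-Nd2 (1.21, SE 0.22, edgeR adjusted p = 0.00112), while iGCB WT 3 fell inside the naive WT range (0.49, SE 0.22, edgeR adjusted p = 0.0773).

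mt-Nd5, chosen for mention after its values were seen, had a log2 fold change of 0.70 in KO (SE 0.26, edgeR adjusted p = 0.0398) and 0.08 in WT (SE 0.26, edgeR adjusted p = 0.813). mt-Nd4 was not called in either, at 0.61 in KO (SE 0.25, edgeR adjusted p = 0.0577) and 0.10 in WT (SE 0.25, edgeR adjusted p = 0.750). Thus, of the 5 well-counted complex I mRNAs, 4 were called higher in KO cells and 2 in WT cells, where 24.8% and 24.7% of all genes were called higher. The difference between the genotypes was called for none of the 5.

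mt-Cytb had 5467, 6061 and 6691 CPM in iGCB KO and 4945, 4384 and 3932 CPM in iGCB WT, against 3256 and 3011 CPM in naive KO and 2446 and 2971 CPM in naive WT. The stages were separate in both genotypes, at 0.95 in KO (SE 0.19, edgeR adjusted p = 0.00181) and 0.71 in WT (SE 0.19, edgeR adjusted p = 0.00914). The WT call was lost without naive WT 1 (0.57, edgeR adjusted p = 0.0523). mt-Co1, in contrast, had 19589.6, 18137 and 21588 CPM in iGCB KO, 19624, 19039 and 13129 CPM in iGCB WT, 16581 and 15811 CPM in naive KO, and 18395 and 19756 CPM in naive WT. Its log2 fold change was 0.29 in KO (SE 0.22, edgeR adjusted p = 0.284) and -0.14 in WT (SE 0.22, edgeR adjusted p = 0.593).

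mt-Tp, the transfer RNA of proline, had 35.3, 34.2 and 32.9 CPM in iGCB KO and 35.9, 33.9 and 57.9 CPM in iGCB WT, against 3.88 and 1.68 CPM in naive KO and 3.58 and 2.50 CPM in naive WT. All iGCB libraries lay far above all naive ones, with 3.61 in KO (SE 0.39, edgeR adjusted p = 3.57e-05) and 3.80 in WT (SE 0.40, edgeR adjusted p = 2.55e-05). As the sequence above shows, the gene is 67 bases long and lies at the edge of the control region, so these counts say where reads lay and not how much mature transfer RNA there was. mt-Tc, the transfer RNA of cysteine, was also called in KO (3.06, SE 0.88, edgeR adjusted p = 0.0125) but not in WT (2.10, SE 0.83, edgeR adjusted p = 0.0503), on 2 to 61 counts a library. mt-Tn, the transfer RNA of asparagine, pointed the other way on 4 to 52 counts, at 0.171 to 0.306 CPM in iGCB KO, 0.0987 to 0.251 in iGCB WT, 0.538 to 0.847 in naive KO and 0.378 to 0.658 in naive WT. Neither contrast of mt-Tn was called (-1.60 in KO, SE 0.82, edgeR adjusted p = 0.116, and -1.48 in WT, SE 0.83, edgeR adjusted p = 0.144).

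Of the 6 weak rows, 4 were called higher in both genotypes. mt-Co2 had 17.6, 24.2 and 19.03 CPM in iGCB KO and 18.7, 17.6 and 25.9 CPM in iGCB WT, against 1.87 and 1.17 CPM in naive KO and 2.06 and 1.41 CPM in naive WT. Its log2 fold change was 3.73 in KO (SE 0.35, edgeR adjusted p = 1.38e-05) and 3.57 in WT (SE 0.35, edgeR adjusted p = 1.60e-05). Its copy Gm28661 moved by 3.13 in KO (SE 0.38, edgeR adjusted p = 7.70e-05) and 2.89 in WT (SE 0.38, edgeR adjusted p = 0.000114). Reads that lie wholly inside the shared stretch cannot be told apart, and how they were assigned to the gene or the copy is not known. Both rows were higher in every iGCB library than in any naive one.

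mt-Atp6, a membrane subunit of ATP synthase, had 13.0, 14.7 and 11.8 CPM in iGCB KO and 11.8, 10.4 and 12.4 CPM in iGCB WT, against 3.11 and 1.19 CPM in naive KO and 2.13 and 2.07 CPM in naive WT. It moved by 2.61 in KO and 2.46 in WT, and its copy Gm10925 by 1.51 and 1.23, all 4 values called in edgeR (largest adjusted p = 0.00894). mt-Co3, the third mitochondrial subunit of complex IV, moved by 1.55 in KO and 1.96 in WT (edgeR adjusted p = 0.00754 and 0.00228), whereas its copy Gm28437 was not called (0.37 and 0.71, edgeR adjusted p = 0.466 and 0.172). mt-Atp8, the small ATP synthase subunit, moved by 3.55 in KO (SE 0.81) and 4.34 in WT (SE 0.85) on 3 to 155 counts a library (edgeR adjusted p = 0.00386 and 0.00151). mt-Nd3 and mt-Nd4l, complex I subunits, were not called, at 0.18 to 0.45 over both genotypes. Gm28438, the copy of mt-Nd3, was called higher in both (2.76 in KO and 2.59 in WT, edgeR adjusted p = 0.0130 and 0.0164), and the fold changes of gene and copy were not alike there. Gm10222, the copy of mt-Nd4l, was not called (0.48 in KO and 1.22 in WT, edgeR adjusted p = 0.524 and 0.123). Of the copies of well-counted genes, Gm28439 (mt-Nd4) was called higher at 1.25 in KO and 1.03 in WT (edgeR adjusted p = 0.0233 and 0.0489). Gm29216 (mt-Co1) was called higher in KO at 1.12 but not in WT at 0.57 (edgeR adjusted p = 0.0439 and 0.266).

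**Figure D3:**
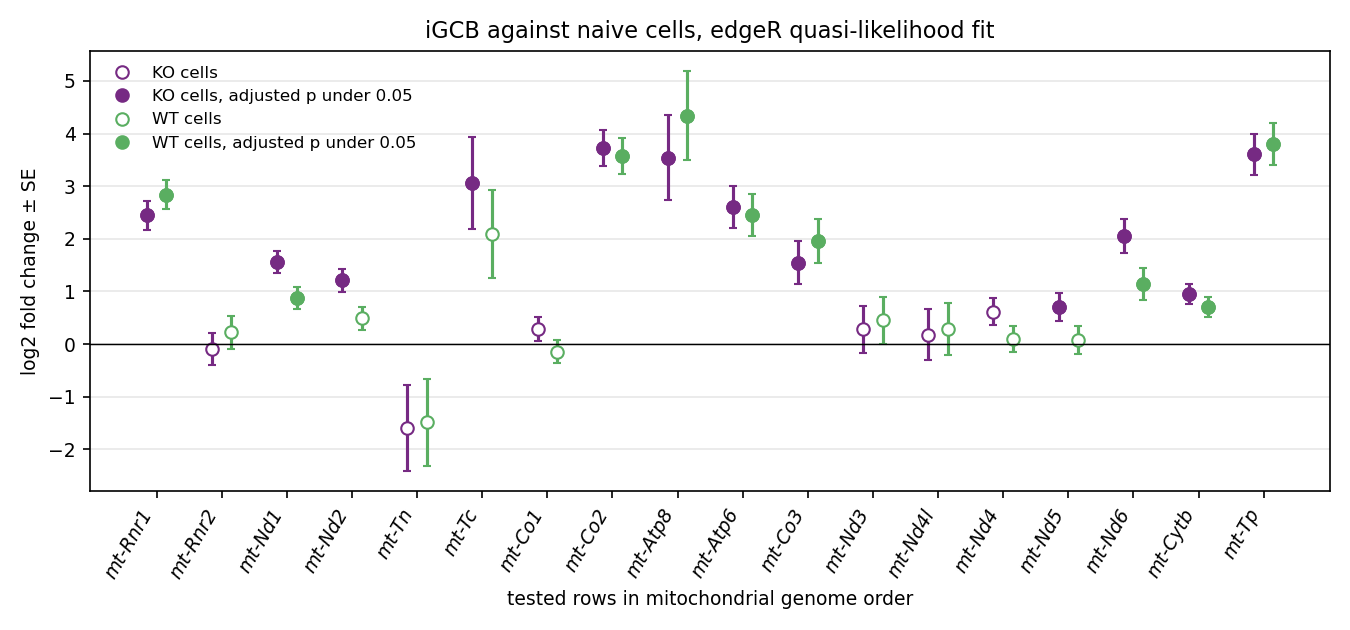
Log2 fold change of iGCB against naive cells for each tested mitochondrial gene in genome order, in KO and WT cells, with bars of 1 standard error and filled points where the adjusted p was under 0.05. mt-Rnr1 sits at 2.45 and 2.84 beside mt-Rnr2 at -0.09 and 0.22, and mt-Co2, mt-Atp8 and mt-Tp lie between 3.55 and 4.34 in both genotypes.

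Set beside the whole table, the 18 rows had a median log2 fold change of 1.38 in KO and 0.79 in WT, where all genes tested had medians of -0.26 and -0.25. The 7 well-counted mRNAs alone had medians of 0.95 in KO and 0.49 in WT, and the 6 weak rows 2.08 and 2.21. In KO cells, iGCB values did not overlap naive values for 14 rows on the higher side and 1, mt-Tn, on the lower side, while 34.2% and 41.3% of all genes did so. In WT cells the counts were 11 and 1, again mt-Tn, beside 32.2% and 40.2% of all genes.

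Other cells also differed between the stages. The 10 fibroblast markers summed to 330 to 381 CPM in iGCB KO, 365 to 454 CPM in iGCB WT, 3.11 to 23.5 CPM in naive KO and 18.0 to 20.04 CPM in naive WT. In the iGCB libraries Thy1 made up most of that sum, at 257 to 413 CPM. Col1a1 reached 13.7 to 20.7 CPM in iGCB KO and 13.1 to 29.5 CPM in iGCB WT, against at most 0.0651 CPM in naive KO and 0.555 CPM in naive WT. Postn leaned the other way, with 0.777 CPM in naive WT 1 and at most 0.111 CPM in any iGCB library. Col3a1 overlapped between the stages in WT, Fn1 in KO and Pdgfrb in both genotypes. The 10 myeloid markers summed to 38.4 to 75.8 CPM in iGCB KO, 23.3 to 38.7 in iGCB WT, 57.0 to 490.4 in naive KO and 250.2 to 364.5 in naive WT. The 8 erythroid and platelet markers summed to 1.68 to 6.001 CPM in iGCB KO, 0.526 to 2.42 in iGCB WT, 26.5 to 218 in naive KO and 92.9 to 129 in naive WT. The 8 T and NK cell markers summed to 1.43 to 2.94 CPM in iGCB KO, 1.34 to 2.99 in iGCB WT, 10.2 to 49.8 in naive KO and 25.2 to 38.2 in naive WT. The part of these cells in the stage differences was not tested, and culture cannot be told apart from stage. Naive libraries include females and iGCB libraries do not. With a term for sex, 11 rows were higher in each genotype.

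The study's title places Pcbp1 in the upkeep of mitochondria, and KO was compared with WT for mitochondrial RNA. KO libraries also had less Cd79a, and Cre in the WT mice is not stated. Effects of Pcbp1 loss, of Cre and of lower Cd79a thus cannot be told apart. In iGCB cells no tested row passed the threshold. edgeR called 0 of 18 rows in either direction, where 0.343% of all genes were higher and 0.923% lower. At an unadjusted p under 0.05 there were 3 of 18 rows, mt-Cytb, mt-Nd6 and mt-Nd1, all with higher values in KO, beside 9.76% of all genes. DESeq2 called 0 rows and had 4 at an unadjusted p under 0.05, beside 8.11% of all genes.

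For mt-Cytb the 3 iGCB KO values given above, 5467 to 6691 CPM, did not overlap the 3932 to 4945 CPM of iGCB WT, and the log2 difference was 0.46 (SE 0.17, edgeR adjusted p = 0.348). mt-Nd6 averaged 1263 ± 222 CPM in iGCB KO and 781 ± 229 CPM in iGCB WT (SD, n = 3 each), without overlap, at 0.69 (SE 0.27, edgeR adjusted p = 0.390). mt-Nd1 averaged 5006 ± 140 CPM in iGCB KO and 3731 ± 724 CPM in iGCB WT, also without overlap, at 0.42 (SE 0.18, edgeR adjusted p = 0.457). None of the 3 was called.

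Ribosomal RNAs showed no such separation. mt-Rnr1 averaged 1366 ± 232 CPM in iGCB KO and 1296 ± 407 CPM in iGCB WT, at 0.08 (SE 0.22, edgeR adjusted p = 1). mt-Rnr2 averaged 2272 ± 432 CPM in iGCB KO and 2360.4 ± 949 CPM in iGCB WT, at -0.06 (SE 0.27, edgeR adjusted p = 1). The 3 transfer RNAs ranged from -0.32 to 0.30, with mt-Tp at 34.2 ± 1.2 CPM in iGCB KO and 42.5 ± 13.4 CPM in iGCB WT.

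Of the 18 rows 13 had a value above 0, against 47.5% of all genes, and the median was 0.19, against 0 over all genes. All 7 well-counted mRNAs were above 0 (median 0.42), while the 6 weak rows had 3 above 0 (median 0.01). Values of iGCB KO lay wholly above those of iGCB WT for 5 rows, mt-Nd1, mt-Nd2, mt-Nd4, mt-Nd6 and mt-Cytb, and wholly below for 0, where 10.2% and 10.3% of all genes did so.

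Single libraries weighed on these values. iGCB WT 3 was the lowest of the 6 iGCB libraries for both ribosomal RNAs and all 7 well-counted mRNAs, and the highest of all 10 for mt-Co2, mt-Atp8, mt-Co3, mt-Tp and the copies Gm28661, Gm10925 and Gm28437. Odd values, which are rarer than even ones where both mates of a read pair add 1 count each, made up 17.7% of its counts from 1 to 20 and 20.3% to 26.9% of those in the other 9 libraries. Without it the log2 difference was 0.38 for mt-Cytb, 0.47 for mt-Nd6 and 0.29 for mt-Nd1, and 0 rows had an unadjusted p under 0.05. The count was also 0 without iGCB KO 3, the library with the highest mt-Cytb, mt-Nd1 and mt-Nd6. It was 1 without iGCB KO 2, 2 without iGCB KO 1 or iGCB WT 2, and 5 without iGCB WT 1. In the fits without 1 iGCB library, 7.52% to 8.71% of all genes were at that level. What sets iGCB WT 3 apart was not tested.

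In naive cells no tested row passed the threshold either. edgeR called 0 of 18 rows, where 0.0143% of all genes were higher and 0.0333% lower. Beside 5.55% of all genes, 0 rows had an unadjusted p under 0.05. DESeq2 called 0 rows as well, also with 0 at an unadjusted p under 0.05, beside 4.84% of all genes. Values above 0 were found for 8 of 18 rows, and the median was -0.03, against -0.05 over all genes. These moved with 1 library, to 3 of 18 and -0.28 without naive KO 1, 13 of 18 and 0.24 without naive KO 2, and 11 of 18 and 0.09 without naive WT 1. Without naive WT 2 they were 9 of 18 and -0.03. The markers of other cells were lowest of the 4 naive libraries in naive KO 2 and, for myeloid, erythroid and T and NK cells, highest in naive KO 1 (57.0 and 490.4 CPM for myeloid, 26.5 and 218 CPM for erythroid and platelet, 10.2 and 49.8 CPM for T and NK cells). Their part in the comparison was not tested. Naive KO lay wholly above naive WT for mt-Rnr1 and mt-Cytb (11.5% of all genes) and wholly below for mt-Nd1, mt-Nd2 and mt-Co1 (12.7% of all genes).

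mt-Rnr1 averaged 250.4 ± 43.5 CPM in naive KO and 181 ± 8 CPM in naive WT (SD, n = 2 each), at 0.47 (SE 0.28, edgeR adjusted p = 1). mt-Rnr2 was at 0.25 (SE 0.34), mt-Nd6 at -0.22 (SE 0.33) and mt-Cytb at 0.21 (SE 0.20), each with an edgeR adjusted p of 1. The protein-coding rows with the smallest p were mt-Nd2 at -0.33 (SE 0.24), mt-Nd1 at -0.26 (SE 0.22) and mt-Co3 at 0.49 (SE 0.42), each with an edgeR adjusted p of 1. With 2 libraries a group, a change of such size could not be told from the spread.

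Each naive genotype held 1 female and 1 male library, which allows the comparison within sex. For mt-Rnr1 the KO library was above the WT library in both sexes, by 0.59 in females and 0.33 in males on the log2 scale. For mt-Nd6 the directions were opposite, 0.30 in females and -0.60 in males, and mt-Nd5 stood at 0.02 and -0.57. mt-Co1 was lower in KO in both sexes, at -0.15 and -0.32. These are single libraries and carry no test.

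The difference of the KO effect between the stages was not called for any row. edgeR called 0 of 18, where 0.0143% of all genes were higher and 0.019% lower. Beside 6.06% of all genes, 2 rows had an unadjusted p under 0.05. These were mt-Nd1, with a difference of 0.68 (SE 0.28, edgeR adjusted p = 0.767), and mt-Nd2, with 0.72 (SE 0.31, edgeR adjusted p = 0.785). mt-Nd6 was at 0.91 (SE 0.42, edgeR adjusted p = 0.844), mt-Rnr1 at -0.39 (SE 0.36), mt-Rnr2 at -0.31 (SE 0.43) and mt-Cytb at 0.25 (SE 0.26). DESeq2 called 0 of the 17 rows it tested and had 3 at an unadjusted p under 0.05, beside 5.11% of all genes.

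**Figure D4:**
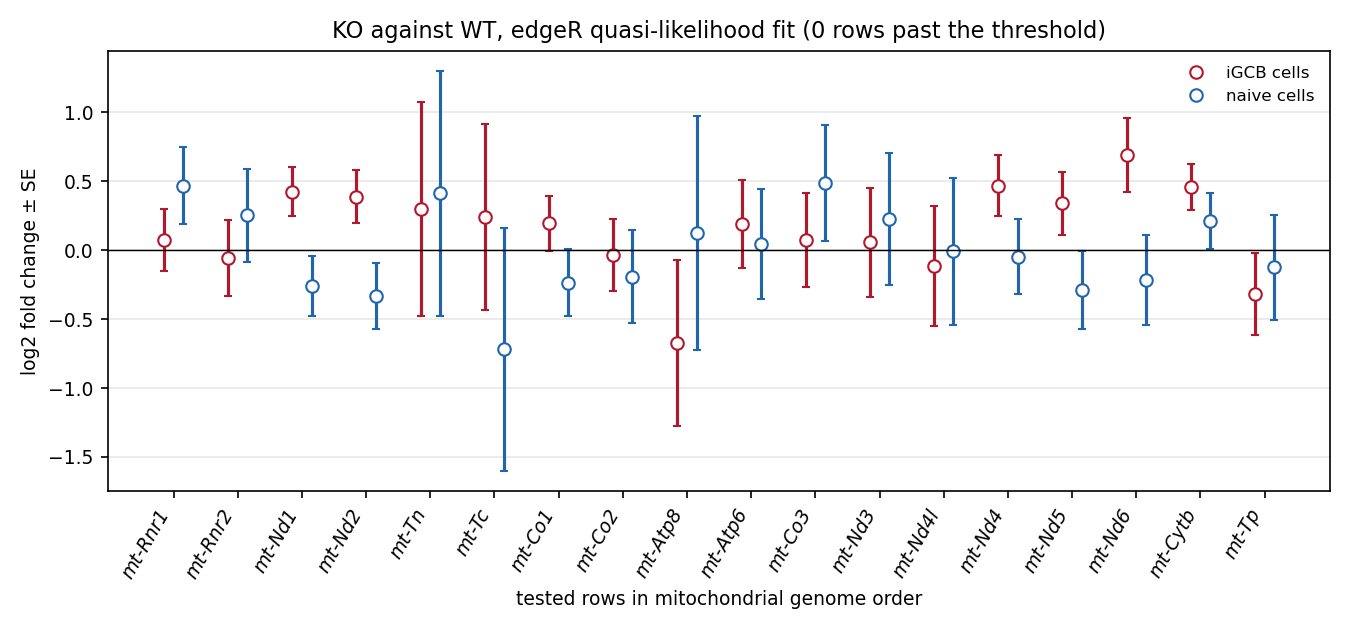
Log2 fold change of KO against WT for each tested mitochondrial gene in genome order, in iGCB and in naive cells, with bars of 1 standard error. The 7 well-counted mRNAs are all above 0 in iGCB cells, led by mt-Nd6 at 0.69, and none of the values passed the threshold in either stage.

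Summed over all 37 rows, mitochondrial RNA made up 4.33%, 4.14% and 4.82% of counts in iGCB KO, 4.40%, 3.86% and 2.71% in iGCB WT, 3.19% and 2.98% in naive KO, and 2.84% and 3.43% in naive WT. The KO libraries of the stages were apart, while iGCB WT 3 lay below both naive WT libraries and iGCB WT 1 above 2 of 3 iGCB KO libraries. The mean share was 1.35 percentage points higher in iGCB KO than in naive KO and 0.525 higher in iGCB WT than in naive WT, beside pooled SDs of 0.302 and 0.742. It was 0.771 points higher in iGCB KO than in iGCB WT (pooled SD 0.658), which shrank to 0.299 without iGCB WT 3. In naive cells the KO mean was 0.0509 points below the WT mean (pooled SD 0.313), a sign that turned to 0.245 without naive WT 2 and 0.0529 without naive KO 2, while it was -0.346 without naive WT 1 and -0.155 without naive KO 1. The stage difference in WT ranged from 0.156 without iGCB WT 1 to 0.998 without iGCB WT 3, and was 0.230 without naive WT 1 and 0.821 without naive WT 2. A share also moves with the rest of the library: immunoglobulin rows took 1.31% to 1.34% of counts in iGCB KO and 2.25% to 2.84% in iGCB WT, and with them left out of the total the KO to WT difference in iGCB cells was 0.732 points.

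Protein-coding rows supplied most of the share, with 4.06%, 3.29%, 2.80% and 2.92% of counts as means of iGCB KO, iGCB WT, naive KO and naive WT. mt-Co1 alone supplied 1.96%, 1.72%, 1.72% and 1.85% in that order. The ribosomal RNAs supplied 0.360% ± 0.065 in iGCB KO, 0.366% ± 0.146 in iGCB WT, 0.282% ± 0.053 in naive KO and 0.213% ± 0.021 in naive WT. Transfer RNA rows supplied 0.00356% ± 0.00011 in iGCB KO, 0.00435% ± 0.00124 in iGCB WT, 0.000392% ± 0.000194 in naive KO and 0.000375% ± 0.000088 in naive WT. mt-Tp had 1238 of the 1289 transfer RNA counts in iGCB KO 1 and 212 of 278 in naive WT 1.

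**Figure D5:**
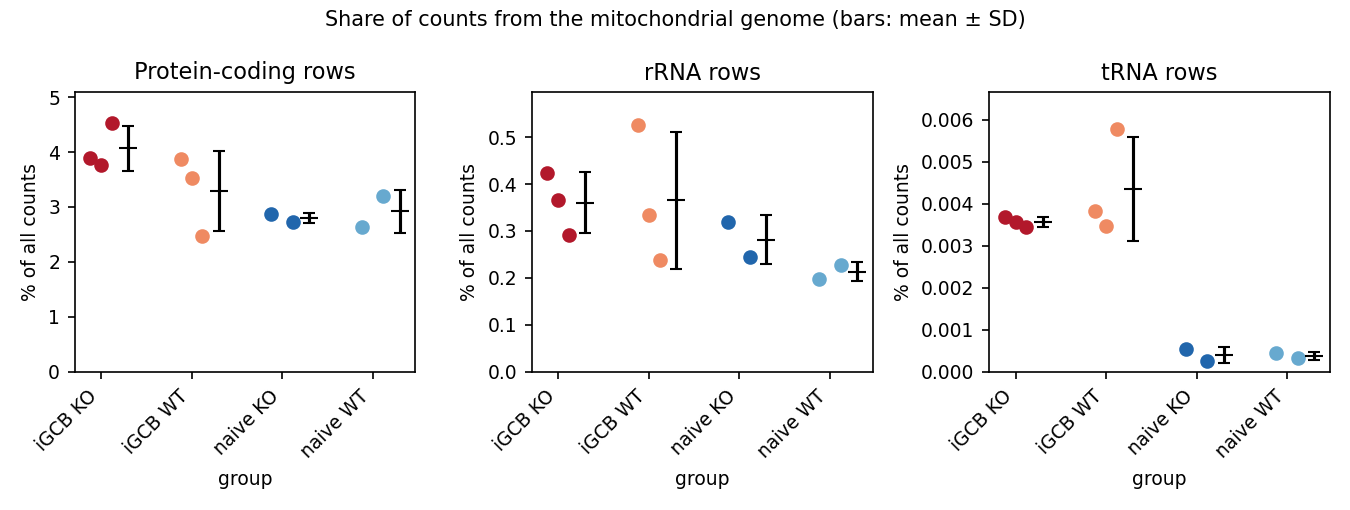
Share of each library's counts from the protein-coding rows, the ribosomal RNAs and the transfer RNAs (percent, 1 panel each), with 1 point per library and the group mean with SD. Protein-coding rows average 4.06% in iGCB KO and 3.29% in iGCB WT with overlapping points, and the transfer RNA panel separates both iGCB groups from both naive groups.

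Nuclear genes make the machinery that transcribes, cuts, modifies and degrades these RNAs, and a list of 43 such genes was described beside them. 42 were tested, all but Pde12. In iGCB KO against naive KO, 12 were higher and 7 lower in edgeR, and in iGCB WT against naive WT, 9 were higher and 8 lower, with medians of 0.26 and 0.10. Over all genes, 24.8% were higher and 31.4% lower in KO and 24.7% and 31.7% in WT, so the list, like the whole table, held calls in both directions.

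Rpusd4, a pseudouridine synthase that in human cells modifies the large mitochondrial ribosomal RNA, had the largest rise, 2.22 in KO (SE 0.21) and 2.16 in WT (SE 0.21). Grsf1, a protein of mitochondrial RNA granules, rose by 1.28 and 1.31, and Gtpbp3, which modifies wobble uridines of transfer RNAs, by 1.23 and 1.25. Ptcd2, a pentatricopeptide protein, rose by 1.13 and 1.03, and Mrm2, which in human cells methylates the large ribosomal RNA, by 1.22 and 0.95. Trnt1, which adds the CCA ends of transfer RNAs, rose by 0.96 and 1.06. The largest edgeR adjusted p among these was 0.0320. Mterf1b, a relative of a transcription terminator, was called higher in KO at 1.71 (edgeR adjusted p = 0.0149) but not in WT at 0.62 (edgeR adjusted p = 0.295).

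Mto1, the partner of Gtpbp3 in the same modification, moved the other way, with -0.96 in KO and -1.21 in WT. Fastkd2, which binds the large ribosomal RNA, stood at -1.24 and -1.01, and Ptcd1 at -1.09 and -0.88. Nsun3 and Nsun4, methyltransferases of a transfer RNA and of the small ribosomal RNA, stood at -0.85 and -0.91 in KO and at -1.07 and -0.81 in WT. Mterf3, a repressor of mitochondrial transcription, was at -0.82 in KO and -1.05 in WT. All of these were called lower, with edgeR adjusted p of 0.0271 or less. Rexo2, an exonuclease of short RNAs, was called lower in KO at -1.06 (edgeR adjusted p = 0.00939) but not in WT at -0.22 (edgeR adjusted p = 0.538).

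The core transcription factors Tfam, Tfb2m and Polrmt differed by less than most genes named above. Tefm, also listed under transcription and mentioned after its values were seen, was not called. It stood at 0.88 in KO (SE 0.45, edgeR adjusted p = 0.109) and 0.98 in WT (SE 0.45, edgeR adjusted p = 0.0811). Tfam, which packages mitochondrial DNA and starts its transcription, was higher by 0.50 in KO (SE 0.18, edgeR adjusted p = 0.0311) and 0.49 in WT (SE 0.18, edgeR adjusted p = 0.0345). Tfb2m, which opens the promoter, was at -0.20 in KO (SE 0.21, edgeR adjusted p = 0.432) and called lower in WT at -0.55 (SE 0.21, edgeR adjusted p = 0.0434). Polrmt, the RNA polymerase, was not called, at 0.34 in KO and 0.31 in WT (SE 0.31 each), nor was Lrpprc, which stabilises mitochondrial mRNAs, at -0.08 and -0.32. Its partner Slirp was at 0.454 CPM or less in all libraries and not called. In KO against WT, edgeR called 0 of the 42 in iGCB cells, with 1, Rexo2 at -0.58 (SE 0.26, adjusted p = 0.508), at an unadjusted p under 0.05, and 0 in naive cells with 0 at that level. Of all genes, 9.76% in iGCB and 5.55% in naive cells were at that level.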

How the data were processed

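RNA was sequenced from 10 mouse B cell libraries after an mRNA library preparation, per the labels. The deposited values are whole-number counts per gene symbol, made by the authors with featureCounts on mm10, per the submitters' processing notes. For the aligner, strand setting, versions and handling of multiply placed reads, nothing is given in the sources used here. Low rows were removed with filterByExpr (minimum count 10), which left 21010 of 55492 rows. Counts were TMM-scaled and fitted in 1 model of 4 groups with the quasi-likelihood test of edgeR 4.0.16 (R 4.3.3), two-sided, Benjamini-Hochberg at 0.05 over all genes tested, after the fit was tested on simulated data. DESeq2 1.42.0, other scalings, no filter, left-out libraries, a replicate block and a sex term were alternatives. Positions and sequences came from GENCODE M21 (mm10), and nuclear copies from BLAST+ 2.17.0 hits of at least 95% identity over 100 bases. Sex was read from Xist and Y-linked genes. Per-library values were given for mt-Rnr1, mt-Rnr2, mt-Nd6, mt-Cytb, up to 8 called rows with the smallest p and the 3 protein-coding rows with the smallest p in each comparison. Of the nuclear list, up to 6 called genes with the largest change in each direction were named, with Polrmt, Tfam, Tfb2m, Lrpprc and Slirp always. Members, lists and rules were chosen with earlier results of these data known. Mates of a read pair appear to be counted singly, so a count is not an independent molecule, and the limit that 0 counts allow covers counting error only.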

Additional observations from a re-analysis of the deposited data

How the results depend on the processing

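In each genotype the stage comparison kept 0 rows lower under every alternative run, with 7 to 11 rows higher in WT (main count 9) and 9 to 13 in KO (main count 12). Both genotype comparisons, and their difference between stages, kept 0 rows called in both directions, with 1 exception. Without the filter on low counts, 1 row, mt-Nd6, was called higher in iGCB KO (0.67, SE 0.19, edgeR adjusted p = 0.0205, range over 18 alternatives 0.0205 to 0.770). Over all genes, iGCB KO against WT gave 72 higher and 194 lower, against 321 and 502 with DESeq2, 290 and 551 without the filter, 329 and 534 in a fit of iGCB libraries alone, and 12 to 152 and 26 to 337 with 1 library left out. Naive KO against WT gave 3 and 7, against 115 and 65 with DESeq2 and 126 and 116 without the filter. With 1 library left out, signs turned for mt-Rnr2 in naive KO against WT (-0.0039 to 0.46), in iGCB KO against WT (-0.30 to 0.29), in the stage comparison of WT (-0.13 to 0.47) and of KO (-0.29 to 0.17), and in the difference of KO effects (-0.55 to 0.040). They also turned for mt-Rnr1 in iGCB KO against WT (-0.094 to 0.36), and for mt-Nd6 (-0.60 to 0.28) and mt-Co3 (-0.26 to 0.96) in naive KO against WT. With the replicate block, mt-Rnr2 turned to 0.0062 in iGCB KO against WT and to 0.068 in the stage comparison of KO, and with a sex term to 0.0070 in that stage comparison. The cause of these turns was not tested. The replicate block called 8 rows in WT and 10 in KO between stages and 0 between genotypes, and took the call of mt-Cytb in WT (0.79, edgeR adjusted p = 0.0611). Same-numbered naive libraries deviated together (correlation 0.637 over 10379 genes), but they also shared sex. With 2 libraries a group this is 1 value for both naive pairs. iGCB libraries 1 also deviated together (0.461), but 2 and 3 did not (-0.135 and 0.029). The numbers were not taken as pairs in the main fit, which also had no sex term. Scaling by library size alone moved the median of all genes by 0.12 in naive KO against WT, by -0.10 in the stage comparison of KO and by -0.14 in the difference, and DESeq2 size factors by -0.11 in the stage comparison of KO. The 6 weak rows and the transfer RNAs are limited by depth, with counts from 2 upward in the rows tested.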
